A study of Saccharomyces cerevisiae with 21 samples.

Results

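The 7 genes described here encode acid phosphatases and the phosphatases of alkaline or neutral optimum that are usually listed with them in budding yeast: PHO5, PHO3, PHO11, PHO12, DIA3, PHO8 and PHO13. They were taken by gene name, but with earlier results of these data known, so counts over them are descriptions and not tests. All 7 were found among the 6407 genes of the expression table. The levels come from 21 poly(A) RNA-seq libraries of Saccharomyces cerevisiae, strain W303, grown to mid-log phase in YPD, a rich glucose medium. The series examined Swi/Snf, an ATP-driven complex that moves and evicts nucleosomes, and its part in transcriptional interference. Every strain had lost its chromosomal copy of a Swi/Snf subunit and was given back a marked construct, with 3 replicate libraries per genotype, each replicate from a culture taken on another day. In the SWI3 family (swi3Δ chromosome) the groups were swi3del with LEU2 alone, swi3-E815X with swi3-E815X::LEU2, and the wild-type construct SWI3::LEU2, called SWI3 here. In the SNF2 family (snf2Δ chromosome) they were snf2del with LEU2 alone, snf2-W935R with snf2-W935R::LEU2, snf2-Q928K with snf2-Q928K::LEU2, and the wild-type construct SNF2::LEU2, called SNF2. The wild types are thus themselves reconstructed strains. The number of independent transformants behind each genotype is not stated in the labels, so the p-values measure the spread between cultures.

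Yeast scavenges phosphate by secreting acid phosphatases into the space between membrane and cell wall, where they free phosphate from organic esters. When phosphate is scarce, the transcription factor Pho4, helped by Pho2, enters the nucleus and activates PHO5, PHO11, PHO12, PHO8 and the transporter gene PHO84. When phosphate is ample, the kinase Pho80-Pho85 keeps Pho4 out of the nucleus. PHO5 and PHO8 are the classic promoters for studies of chromatin opening: nucleosomes cover Pho4 sites and must be remodelled, a step in which Swi/Snf takes part. PHO3 is controlled apart from this circuit and is best known for its repression by thiamine.

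The stretches of DNA before the genes in which Pho4 sites are found are shown first, because the genes differ in whether they hold such a site. Sequences were read from the R64 (sacCer3) genome. They run 5′ to 3′ on the strand of the gene, and capitals mark matches to CACGTG, the palindromic core that Pho4 binds, or to CACGTT, its asymmetric variant, on either strand (the other strand reads AACGTG). The PHO5 window is chrII:431052-431351 on the minus strand, 400 to 101 bases before the start codon. The PHO11 window is chrI:225030-225329 on the plus strand, 430 to 131 bases before the start codon. The PHO3 window is chrII:429202-429501 on the minus strand, 400 to 101 bases before the start codon, and is shown as the neighbour of PHO5 without a match. The PHO8 window is chrIV:1420511-1420810 on the minus strand, 560 to 261 bases before the start codon.
PHO5: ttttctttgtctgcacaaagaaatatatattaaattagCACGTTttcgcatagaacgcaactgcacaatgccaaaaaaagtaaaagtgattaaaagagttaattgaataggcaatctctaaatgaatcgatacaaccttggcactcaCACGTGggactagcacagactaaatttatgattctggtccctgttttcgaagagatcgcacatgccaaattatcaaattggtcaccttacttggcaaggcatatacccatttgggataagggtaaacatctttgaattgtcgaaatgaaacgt
PHO11: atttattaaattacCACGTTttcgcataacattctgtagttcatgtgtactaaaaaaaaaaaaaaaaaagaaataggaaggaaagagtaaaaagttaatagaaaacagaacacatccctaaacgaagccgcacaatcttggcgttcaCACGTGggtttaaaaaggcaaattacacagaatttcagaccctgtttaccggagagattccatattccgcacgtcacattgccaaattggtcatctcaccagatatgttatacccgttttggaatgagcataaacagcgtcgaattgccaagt
PHO3: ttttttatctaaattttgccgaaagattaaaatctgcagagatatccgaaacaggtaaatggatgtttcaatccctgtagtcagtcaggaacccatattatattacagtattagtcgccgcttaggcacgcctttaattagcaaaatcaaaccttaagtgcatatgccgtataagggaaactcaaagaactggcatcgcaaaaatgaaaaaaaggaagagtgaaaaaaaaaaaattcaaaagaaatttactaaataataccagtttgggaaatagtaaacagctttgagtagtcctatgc
PHO8: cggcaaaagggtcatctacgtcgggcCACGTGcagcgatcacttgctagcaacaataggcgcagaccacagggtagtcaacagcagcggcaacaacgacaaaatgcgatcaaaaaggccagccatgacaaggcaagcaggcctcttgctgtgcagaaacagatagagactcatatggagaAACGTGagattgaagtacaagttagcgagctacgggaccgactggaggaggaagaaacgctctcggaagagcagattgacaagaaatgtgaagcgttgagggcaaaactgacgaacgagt

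Within 600 bases before the start codon, CACGTG was found in 4 of the 7 genes, against 7.2% of 6018 genes with a window of that length (434 genes). CACGTT on either strand was found in 5 of the 7, against 18.7% of all windows (1128 genes), and both words together occurred in 1.6% of all windows (97 genes). PHO5 had CACGTG at 253 and CACGTT at 362 bases before the start codon. PHO11 had them at 283 and 416 bases, and PHO12 at 283 and 418 bases. PHO8 had CACGTG at 534 bases and the variant at 380 bases, and the whole window printed for PHO8 lies inside the coding region of the neighbouring gene CWC21 (chromosome IV, 1420431 to 1420838). PHO13 had only the variant, at 221 bases, and neither word was found before PHO3 or DIA3. A match is a description of the letters and not of binding.

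**Figure D1:**
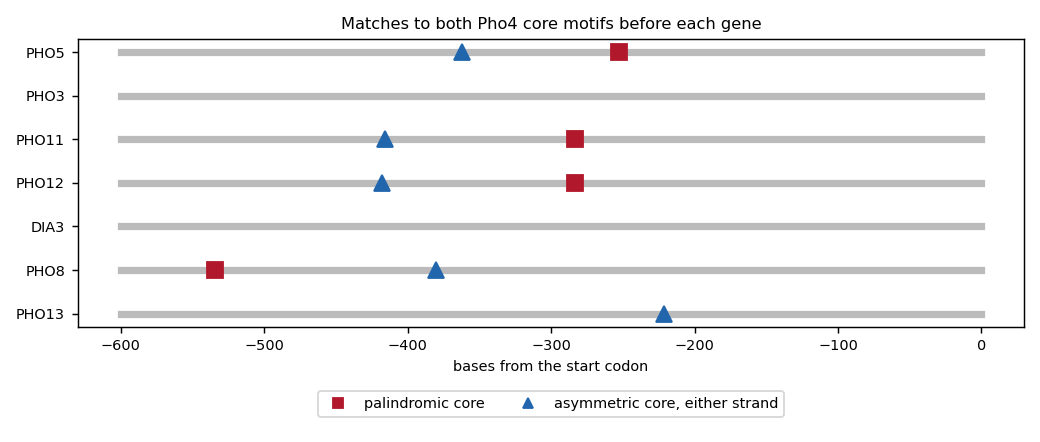
Matches to the palindromic and the asymmetric core in the 600 bases before the start codon of each gene; the x axis is the distance from the start codon in bases, squares are the palindrome and triangles the variant on either strand. PHO5, PHO11, PHO12 and PHO8 hold both words, PHO13 the variant only, and PHO3 and DIA3 neither.

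The 5 acid phosphatase genes form a sequence family, and the other 2 do not belong to it. PHO5 (YBR093C, chromosome II, 429548 to 430951, minus strand) and PHO3 (YBR092C, chromosome II, 427698 to 429101, minus strand) lie in tandem with 446 bases between them and share 86.5% of coding bases and 86.7% of residues. PHO11 (YAR071W, chromosome I, 225460 to 226863, plus strand) and PHO12 (YHR215W, chromosome VIII, 552099 to 553502, plus strand) lie 3.4 kb and 9.1 kb from a chromosome end. Their coding sequences differ at 4 of 1404 bases and their proteins at 2 of 467 residues, and the 300 bases before both start codons are identical. PHO11 shares 83.6% of coding bases with PHO5. DIA3 (YDL024C, chromosome IV, 408451 to 409857, minus strand) shares 64.5% of coding bases with PHO5 and overlaps the small gene YDL022C-A on the same strand by 50 bases. PHO8 (YDR481C, chromosome IV, 1418550 to 1420250, minus strand) and PHO13 (YDL236W, chromosome IV, 32296 to 33234, plus strand) align with PHO5 at only 14% and 15.2% of residues. All of these positions are coding regions in R64.

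The shared sequence limits which levels can be read gene by gene. Of all 50-base stretches of the coding region, 88.3% in PHO11 and 87.2% in PHO12 occurred elsewhere in the genome, against 12.3% in PHO5, 8.7% in PHO3 and 0% in DIA3, PHO8 and PHO13. At 100 bases the share was 75.2% in PHO11 and PHO12 and 0% in the other 5 genes. PHO11 and PHO12 are therefore best read as a pair: the ratio of PHO12 to PHO11 stayed between 1.141 and 1.278 in all 21 libraries. A common response of the pair and reads divided between the copies cannot be told apart here.

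Levels are given as TPM, transcript abundances that are scaled for gene length and for the total of the library, so genes can be compared. Summed TPM per library lay between 960811 and 1000396 and between 6311 and 6393 genes reached 1 TPM; the number of reads, and so the depth, is unknown. SWI3 RNA stood at 0.127 ± 0.0601 TPM in swi3del (SD, n = 3), against 32.1 to 47.8 TPM in the libraries of the other 6 groups; the level of SNF2 was not analysed here. LEU2 RNA was 134 to 174 TPM in the libraries of swi3del and snf2del and at most 0.552 TPM in those of the other 5 groups, although all labels name LEU2. Genes specific to mating type a summed to 843 to 1275 TPM per library (6 of 6 genes) and alpha-specific genes to 26.9 to 79.2 TPM (3 of 4 genes in the table).

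Changes are log2 fold changes of TPM + 1, mutant minus its own wild type, with their standard error (SE) from limma, and a gene was called at a Benjamini-Hochberg adjusted p under 0.05 over all genes tested. On this scale the change of a gene with few transcripts is understated. In cultures such as these, fewer cells that transcribe a gene and less RNA per cell cannot be told apart.

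Among the secreted acid phosphatases, PHO5, the main repressible enzyme, fell in each of the 5 mutants to 10.6% to 14.7% of its wild-type level. PHO5 had 23.3, 20.6 and 23.5 TPM in swi3del and 31.4, 28.6 and 33.1 TPM in swi3-E815X, against 212.5, 201 and 220.0 TPM in SWI3. It had 21.2, 27.8 and 28.0 TPM in snf2del, 24.0, 21.7 and 19.1 TPM in snf2-W935R and 32.3, 28.7 and 27.5 TPM in snf2-Q928K, against 209, 219.67 and 183 TPM in SNF2. Every mutant library lay far below every wild-type library. The ranges of the mutants overlapped in a chain, but not each with every other. All swi3-E815X libraries lay above all swi3del libraries, and all snf2-Q928K libraries above all snf2-W935R libraries. The log2 change was -3.18 ± 0.08 in swi3del (adjusted p = 4.06e-11) and -2.73 ± 0.08 in swi3-E815X (adjusted p = 5.46e-09). It was -2.95 ± 0.12 in snf2del (adjusted p = 2.13e-11), -3.18 ± 0.12 in snf2-W935R (adjusted p = 1.25e-10) and -2.75 ± 0.12 in snf2-Q928K (adjusted p = 1.58e-10).

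PHO3, the constitutive enzyme that also frees thiamine from its phosphate esters, fell in all 5 mutants too. It had 51.8, 39.4 and 41.0 TPM in swi3del and 91.7, 81.9 and 87.6 TPM in swi3-E815X, against 328, 275 and 307 TPM in SWI3. In the other family it had 39.5, 38.3 and 66.0 TPM in snf2del, 88.1, 88.6 and 89.2 TPM in snf2-W935R and 79.4, 70.5 and 63.6 TPM in snf2-Q928K, against 249, 298 and 252 TPM in SNF2. No mutant library reached a wild-type library. Replicate 3 of snf2del stood above its other 2 libraries. The log2 change was -2.76 ± 0.11 in swi3del (adjusted p = 8.06e-10) and -1.79 ± 0.11 in swi3-E815X (adjusted p = 3.84e-07), which is 14.5% and 28.7% of the SWI3 level. It was -2.49 ± 0.17 in snf2del (adjusted p = 9.43e-08), -1.57 ± 0.17 in snf2-W935R (adjusted p = 3.91e-05) and -1.89 ± 0.17 in snf2-Q928K (adjusted p = 2.97e-06). The ratio of PHO3 to PHO5 had its highest group mean in snf2-W935R at 4.14 ± 0.502 (SD, n = 3), against 1.31 ± 0.101 in SNF2, and PHO3 was the more abundant of the tandem pair in every library, the lowest ratio being 1.19.

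PHO11 and PHO12, the repressible enzymes encoded near chromosome ends, were the most abundant members in wild-type cells and had the deepest falls. In SWI3 cells PHO12 ranked above 95.5% and PHO11 above 94.7% of all genes. PHO11 had 9.05, 10.4 and 11.2 TPM in swi3del and 45.8, 53.6 and 59.6 TPM in swi3-E815X, against 474, 506 and 486 TPM in SWI3. It had 12.039, 14.954 and 10.9 TPM in snf2del, 15.9, 14.4 and 14.8 TPM in snf2-W935R and 22.1, 15.8 and 19.6 TPM in snf2-Q928K, against 289, 323 and 293 TPM in SNF2. The swi3-E815X libraries stood apart from the other 4 mutants, above all of their libraries and below all wild-type libraries. PHO12 followed with 10.9, 11.985 and 14.3 TPM in swi3del and 58.6, 65.4 and 73.9 TPM in swi3-E815X, against 589.55, 623 and 586 TPM in SWI3. PHO12 had 13.7, 17.3 and 13.1 TPM in snf2del, 18.1, 16.9 and 17.9 TPM in snf2-W935R and 25.6, 18.8 and 22.8 TPM in snf2-Q928K, against 352, 406 and 354 TPM in SNF2.

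The change of PHO11 was -5.45 ± 0.10 in swi3del (adjusted p = 3.64e-12) and -3.19 ± 0.10 in swi3-E815X (adjusted p = 5.68e-09), and that of PHO12 -5.49 ± 0.11 (adjusted p = 4.41e-12) and -3.17 ± 0.11 (adjusted p = 6.07e-09). PHO12 and PHO11 were the lowest and the next lowest of 6395 genes by this measure in swi3del, and PHO11 was the lowest in swi3-E815X. In the SNF2 family PHO11 changed by -4.48 ± 0.12 in snf2del (adjusted p = 5.59e-13), -4.24 ± 0.12 in snf2-W935R (adjusted p = 1.09e-11) and -3.92 ± 0.12 in snf2-Q928K (adjusted p = 6.93e-12). PHO12 changed by -4.57 ± 0.11, -4.32 ± 0.11 and -4.00 ± 0.11 in these 3 mutants, with the largest adjusted p at 8.04e-12. In TPM, PHO12 stood at 2.07% of the SWI3 level in swi3del, at 11% in swi3-E815X, and at 3.97%, 4.76% and 6.04% of the SNF2 level in snf2del, snf2-W935R and snf2-Q928K.

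**Figure D2:**
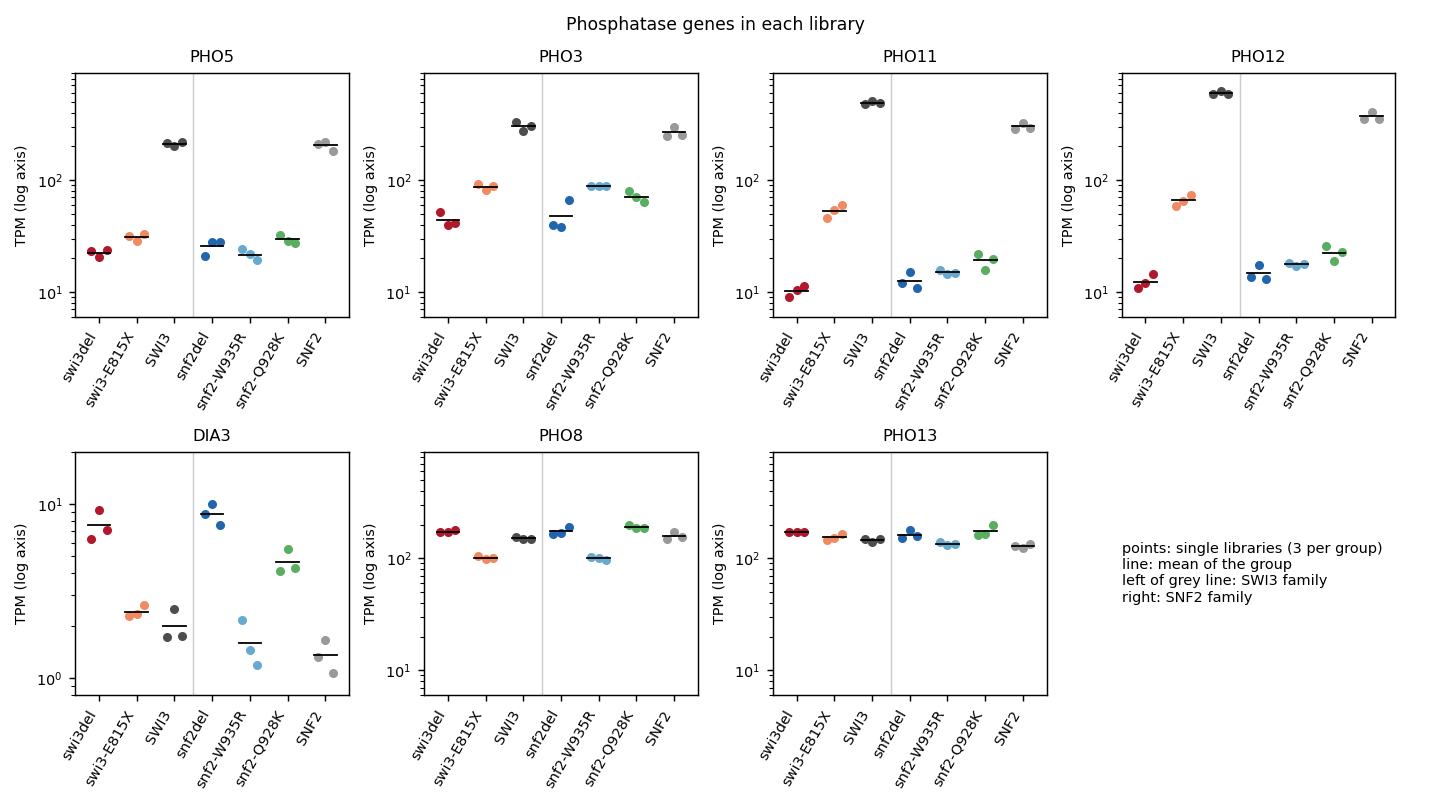
TPM of each phosphatase gene in the 21 libraries on a log axis; points are libraries, lines group means (n = 3), with the SWI3 family left of the grey line and the SNF2 family right of it, and with a lower axis range for DIA3. PHO5, PHO3, PHO11 and PHO12 are lower in all mutant libraries than in all wild-type libraries, DIA3 is highest in swi3del, snf2del and snf2-Q928K, and PHO8 is lowest in swi3-E815X and snf2-W935R.

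DIA3, an acid phosphatase relative known from screens on invasive and filamentous growth, went the other way in 3 of the 5 mutants. Its RNA was scarce in wild-type cells, above only 2.7% of genes in SWI3 and 1.6% in SNF2. DIA3 had 6.27, 9.19 and 7.12 TPM in swi3del and 2.26, 2.34 and 2.62 TPM in swi3-E815X, against 1.71, 2.50 and 1.74 TPM in SWI3. It had 8.75, 9.96 and 7.58 TPM in snf2del, 2.15, 1.46 and 1.19 TPM in snf2-W935R and 4.10, 5.50 and 4.31 TPM in snf2-Q928K, against 1.32, 1.65 and 1.08 TPM in SNF2. The libraries of both deletions and of snf2-Q928K lay above all wild-type libraries, while those of swi3-E815X and snf2-W935R overlapped the wild-type range. DIA3 rose by 1.51 ± 0.21 in swi3del (adjusted p = 3.77e-05), 2.05 ± 0.19 in snf2del (adjusted p = 1.83e-07) and 1.26 ± 0.19 in snf2-Q928K (adjusted p = 6.56e-05), which in TPM is 3.8-fold, 6.49-fold and 3.43-fold. The change was 0.20 ± 0.21 in swi3-E815X (adjusted p = 0.636) and 0.14 ± 0.19 in snf2-W935R (adjusted p = 0.644). In the authors' deposited tables DIA3 had log2 changes of 1.6 in swi3del and 1.59 in snf2-Q928K, with adjusted p of 0.222 and 0.483, so these calls rest on the TPM fit. DIA3 from the authors' deposited table of snf2del was not analysed here, so that call rests on the TPM fit too.

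PHO8, the vacuolar alkaline phosphatase, fell in swi3-E815X and snf2-W935R but not in the other mutants. PHO8 had 170.4, 171 and 177 TPM in swi3del and 105, 98.5 and 101 TPM in swi3-E815X, against 157, 149.5 and 150.3 TPM in SWI3. It had 166, 169.8 and 192 TPM in snf2del, 103, 101 and 96.6 TPM in snf2-W935R and 197, 188 and 188 TPM in snf2-Q928K, against 148, 171 and 156 TPM in SNF2. The swi3-E815X and snf2-W935R libraries formed a band below all others, and all snf2-Q928K libraries lay above all SNF2 libraries. The change was -0.58 ± 0.06 in swi3-E815X (adjusted p = 4.35e-05) and -0.65 ± 0.07 in snf2-W935R (adjusted p = 7.42e-06), which is 66.7% of the SWI3 level and 63.5% of the SNF2 level. In the authors' deposited tables these changes were -0.55 (adjusted p = 0.11) and -0.68 (adjusted p = 0.00744), so that of swi3-E815X was not called there.

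The median of all genes shifted by 0.23 in swi3del, 0.26 in snf2del and 0.1 in snf2-Q928K, and small positive changes of PHO8 and PHO13 have to be read against it. PHO8 changed by 0.18 ± 0.06 in swi3del (adjusted p = 0.0169), which is -0.05 relative to the median of all genes, and with median-ratio scaling the change itself was -0.05 (adjusted p = 0.426). In snf2del it changed by 0.15 ± 0.07 (adjusted p = 0.0665). In snf2-Q928K it rose by 0.27 ± 0.07 (adjusted p = 0.00474), and by 0.16 (adjusted p = 0.109) with median-ratio scaling. PHO13, a cytosolic phosphatase that clears toxic side products of sugar metabolism, had 171, 172 and 171 TPM in swi3del and 147, 153 and 166 TPM in swi3-E815X, against 149.8, 139.9 and 149 TPM in SWI3. It had 153, 178 and 157 TPM in snf2del, 139, 133 and 135 TPM in snf2-W935R and 161, 164 and 199.7 TPM in snf2-Q928K, against 128, 125 and 134 TPM in SNF2. Its libraries in both deletions and in snf2-Q928K lay above those of their wild types, and those of swi3-E815X and snf2-W935R lay across or next to the wild-type range. PHO13 changed by 0.23 ± 0.07 in swi3del (adjusted p = 0.00792), and with median-ratio scaling by -0.01 (adjusted p = 0.923). It changed by 0.33 ± 0.08 in snf2del (adjusted p = 0.00254), and with that scaling by 0.07 (adjusted p = 0.403). In snf2-Q928K it rose by 0.43 ± 0.08 (adjusted p = 0.000547). In the authors' deposited table of snf2-Q928K neither PHO8 (0.17, adjusted p = 0.641) nor PHO13 (0.33, adjusted p = 0.223) was called. It changed by 0.09 ± 0.07 in swi3-E815X (adjusted p = 0.504) and 0.07 ± 0.08 in snf2-W935R (adjusted p = 0.589).

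**Figure D3:**
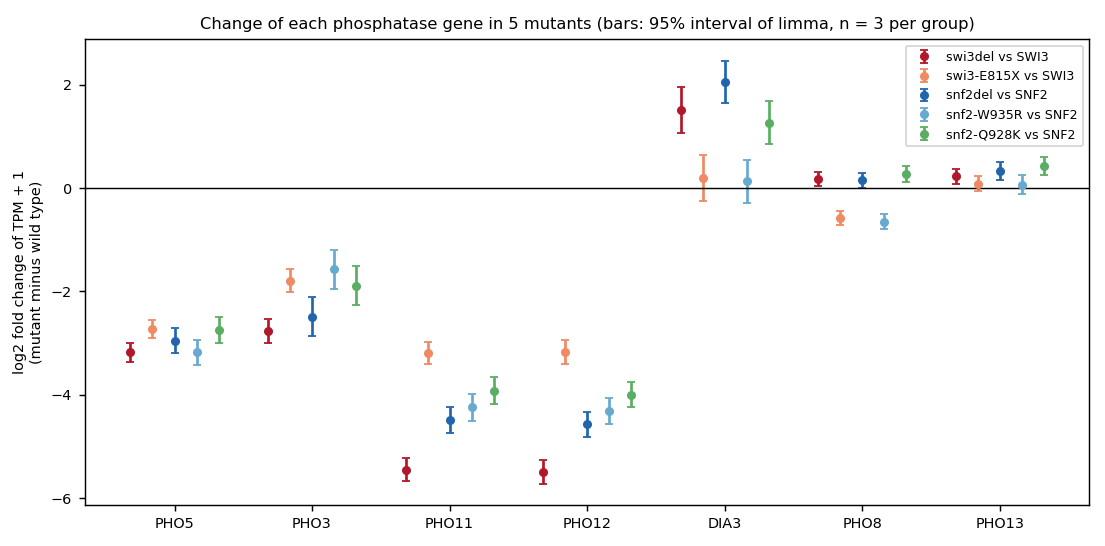
Log2 fold change of TPM + 1 of each gene in the 5 mutants against their own wild type; points are limma estimates and bars their 95% intervals, n = 3 libraries per group. PHO5, PHO3, PHO11 and PHO12 lie between -1.57 and -5.49 in all 5 mutants, and PHO8 lies below 0 in swi3-E815X and snf2-W935R.

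Counted over the 7 genes, 4 were called lower and 3 higher in swi3del, where 24.3% of all genes tested were called lower and 47.4% higher. In swi3-E815X 5 were called lower and 0 higher, against 5.77% and 3.06% of all genes. In snf2del 4 were lower and 2 higher, against 24.6% and 50.2%. In snf2-W935R 5 were lower and 0 higher, against 10.9% and 16.3%, and in snf2-Q928K 4 were lower and 3 higher, against 20.7% and 36.3%. At an unadjusted p under 0.05 limma also placed 0 of the 7 genes higher in swi3-E815X and 0 in snf2-W935R. The shares of all genes depend on the scaling: with median-ratio scaling 50.1% of the calls over all genes were higher in swi3del (66.1% as reported), 50.1% in snf2del (67.1%) and 49.2% in snf2-Q928K (63.6%). The 3 members called higher in swi3del are near the share of all genes. PHO11 and PHO12 enter these and the later counts as 2 genes, although they are best read as a pair. The median change of the 7 was -2.76 in swi3del, -1.79 in swi3-E815X, -2.49 in snf2del, -1.57 in snf2-W935R and -1.89 in snf2-Q928K. The median of all genes tested was 0.23, -0.03, 0.26, 0.03 and 0.1 in the same order of mutants.

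Added together, the transcripts of the 5 acid phosphatase genes made up 96.7 ± 4.90 TPM in swi3del and 239 ± 15.0 TPM in swi3-E815X, against 1605 ± 3.62 TPM in SWI3 (SD, n = 3 each). They made up 109.65 ± 15.2 TPM in snf2del, 144 ± 3.32 TPM in snf2-W935R and 147 ± 14.4 TPM in snf2-Q928K, against 1144 ± 90.6 TPM in SNF2. The makeup of that pool differed between mutants and wild types. PHO12 held 12.9% ± 2.02 in swi3del and 27.5% ± 1.75 in swi3-E815X, against 37.4% ± 1.21 in SWI3. It held 13.6% ± 2.84 in snf2del, 12.2% ± 0.365 in snf2-W935R and 15.2% ± 1.56 in snf2-Q928K, against 32.4% ± 0.362 in SNF2, and it was the largest component in both wild types. Gene by gene, PHO3 was the largest component in every mutant. Its share ran from 36.5% ± 3.05 in swi3-E815X to 61.4% ± 1.74 in snf2-W935R, against 18.9% ± 1.69 in SWI3 and 23.3% ± 0.62 in SNF2. Read as a pair, PHO11 and PHO12 summed to 119 ± 14.5 TPM in swi3-E815X, above PHO3 at 87.1 ± 4.92 TPM. In the other mutants the pair lay below PHO3. DIA3 made up 7.85% ± 1.97 of the pool in swi3del, against 0.127% ± 0.0289 in SWI3, and 8.14% ± 1.82 of it in snf2del, against 0.117% ± 0.0153 in SNF2.

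**Figure D4:**
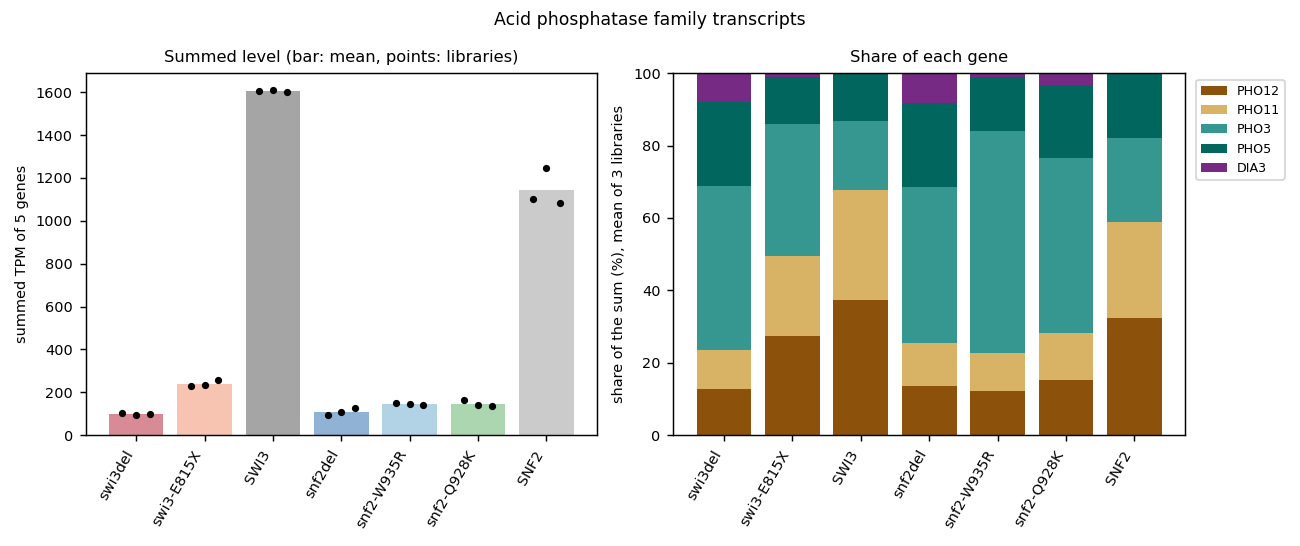
Left, summed TPM of PHO5, PHO3, PHO11, PHO12 and DIA3 per group (bar, mean; points, 3 libraries). Right, the share of each gene in that sum in percent (mean of 3 libraries): PHO3 is the largest single band in every mutant, and PHO12 in both wild types. PHO11 and PHO12 are drawn as separate bands.

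The point mutants were set against the deletion of the same subunit. In swi3-E815X against swi3del, 4 of the 7 genes were higher and 2 lower, where 20.9% of all genes were called higher and 48% lower. The pair PHO11 and PHO12 was higher by 2.26 ± 0.10 (adjusted p = 6.09e-09) and 2.32 ± 0.11 (adjusted p = 6.44e-09), PHO3 by 0.98 ± 0.11 (adjusted p = 6.16e-06) and PHO5 by 0.45 ± 0.08 (adjusted p = 0.000398). DIA3 was lower, with a change of -1.31 ± 0.21 (adjusted p = 0.000134), as was PHO8, with -0.76 ± 0.06 (adjusted p = 4.91e-07). The PHO11 and PHO12 levels of the allele were 518% and 532% of those of the deletion, and its PHO8 level was 58.7%.

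Against snf2del, snf2-W935R had 1 gene higher (PHO3) and 3 lower (DIA3, PHO8 and PHO13), where 23.4% of all genes were called higher and 48.5% lower. PHO3 was higher by 0.92 ± 0.17 (adjusted p = 0.000545), DIA3 changed by -1.92 ± 0.19 (adjusted p = 5.65e-07) and PHO8 by -0.80 ± 0.07 (adjusted p = 1.58e-07). PHO13 changed by -0.26 ± 0.08 (adjusted p = 0.0123), close to the median of all genes at -0.23, and by -0.02 (adjusted p = 0.775) with median-ratio scaling. PHO5 (-0.23, adjusted p = 0.0849), PHO11 (0.24, adjusted p = 0.0814) and PHO12 (0.25, adjusted p = 0.0588) were not called. Without snf2del replicate 2, or with median-ratio scaling, PHO11 and PHO12 were called and 3 genes were higher. PHO5 was called lower without snf2-W935R replicate 1 (-0.31, adjusted p = 0.042) and without snf2del replicate 1 (-0.36, adjusted p = 0.00997), and 2 to 4 genes were lower over the 12 fits that left out a library. With median-ratio scaling 50.9% of the calls over all genes were higher (32.6% as reported), and in swi3-E815X against swi3del 50.6% (30.3%). Against snf2del, snf2-Q928K had 3 genes higher and 1 lower, where 22.3% of all genes were called higher and 40.5% lower. PHO11 (0.56, adjusted p = 0.000996), PHO12 (0.57, adjusted p = 0.000573) and PHO3 (0.60, adjusted p = 0.0107) were higher and DIA3 was lower (-0.79, adjusted p = 0.00261), while PHO8 (0.12, adjusted p = 0.158) and PHO5 (0.20, adjusted p = 0.137) were not called. With median-ratio scaling 6 genes were higher, and 52.6% of the calls over all genes (35.5% as reported).

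Between the SNF2 alleles, 6 of the 7 genes were higher in snf2-Q928K than in snf2-W935R and 0 were lower, also at an unadjusted p under 0.05, where 30% of all genes were called higher and 14.1% lower. With median-ratio scaling 51.3% of the calls over all genes were higher (68.1% as reported). PHO8 was higher by 0.92 ± 0.07 (adjusted p = 4.55e-07), DIA3 by 1.13 ± 0.19 (adjusted p = 0.000355), PHO5 by 0.43 ± 0.12 (adjusted p = 0.00726) and PHO13 by 0.36 ± 0.08 (adjusted p = 0.00323). PHO11 and PHO12 were each higher by 0.32, with adjusted p of 0.0447 and 0.0353, and these calls were lost in 9 and 5 of the 12 fits that left out a library of the SNF2 family. Both calls were also lost with median-ratio scaling (0.23 each, adjusted p = 0.112 and 0.0987) and with quantile scaling (adjusted p = 0.262 and 0.169). With plain moderation of limma they were lost too (adjusted p = 0.0615 and 0.0505). PHO3 differed by -0.32 (adjusted p = 0.162; 95% interval -0.70 to 0.06).

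Across the families, the deletions were compared first. In swi3del against snf2del limma called 0 of the 7 genes, where 0.453% of all genes were called, and 1 gene, PHO11, had an unadjusted p under 0.05 (0.0316, change -0.27). Over all genes 22 were called lower and 7 higher there, against 4 to 27 and 2 to 11 when single libraries were left out and 34 and 26 with quantile scaling, so the share is not stable. The intervals of the differences ran from -0.52 to -0.03 for PHO11, from -0.39 to 0.05 for PHO5, from -0.41 to 0.24 for PHO3, from -0.59 to 0.19 for DIA3 and from -0.15 to 0.11 for PHO8. The wild types differed in the pair near chromosome ends. In SNF2 against SWI3, PHO11 (-0.69 ± 0.12, adjusted p = 0.000574) and PHO12 (-0.70 ± 0.12, adjusted p = 0.000483) were lower and 0 genes were higher, where 2.56% of all genes were called lower and 1.41% higher, and 3 were lower and 0 higher at an unadjusted p under 0.05. PHO5 (-0.05, adjusted p = 0.861), PHO3 (-0.19, adjusted p = 0.598) and PHO8 (0.05, adjusted p = 0.725) were not called. PHO12 averaged 371 ± 30.2 TPM in SNF2 cells and 599.8 ± 20.5 TPM in SWI3 cells, with no overlap.

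The change of PHO11 against its own wild type was deeper in swi3del than in snf2del, the difference of changes being -0.97 ± 0.17 (adjusted p = 0.000944), and that of PHO12 -0.92 ± 0.16 (adjusted p = 0.00127), where 2.28% of all genes had such a difference called. Between swi3-E815X and snf2-W935R the difference of changes was 1.05 ± 0.17 for PHO11 (adjusted p = 0.000313) and 1.14 ± 0.16 for PHO12 (adjusted p = 0.000106), where 7.71% of all genes were called. For PHO5 it was 0.45 ± 0.15 (adjusted p = 0.0682). These 2 alleles also differed in level. In swi3-E815X against snf2-W935R 3 genes were higher and 0 lower, where 6.62% of all genes were called higher and 12.3% lower, and at an unadjusted p under 0.05 the counts were 5 and 0. With median-ratio scaling 50.2% of the calls over all genes were higher (34.9% as reported). PHO11 was higher by 1.75 ± 0.12 (adjusted p = 6.31e-09), PHO12 by 1.84 ± 0.12 (adjusted p = 2.54e-09) and PHO5 by 0.51 ± 0.10 (adjusted p = 0.0022). PHO8, lowered in both, differed by 0.02 (adjusted p = 0.895; 95% interval -0.12 to 0.15), and PHO3 by -0.03 (adjusted p = 0.928; 95% interval -0.35 to 0.30).

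Ordered by mean level, neighbouring groups often overlapped. For PHO5 the order ran from snf2-W935R through swi3del, snf2del and snf2-Q928K to swi3-E815X, each overlapping the next with adjusted p of 0.098 or more, and only the step from swi3-E815X to SNF2 (2.68, adjusted p = 1.56e-13) separated groups. For PHO12 the step from snf2-W935R to snf2-Q928K (0.32, adjusted p = 0.0309 in the fit of all 21 libraries), the step from snf2-Q928K to swi3-E815X (1.52, adjusted p = 1.86e-09) and the steps to SNF2 (2.48, adjusted p = 3.67e-12) and on to SWI3 (0.70) separated groups. For PHO8 only the step from swi3-E815X to SWI3 (0.58, adjusted p = 8.06e-07) did, the 5 higher groups overlapping in turn. For DIA3 the steps from swi3-E815X to snf2-Q928K (0.72, adjusted p = 0.00325) and on to swi3del (0.59, adjusted p = 0.0102) did. For PHO13 no step was called, the smallest adjusted p being 0.298.

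Over the 21 libraries, log2 levels of PHO5 correlated with those of PHO3 at r = 0.932 and with those of PHO11 at r = 0.963, and those of PHO11 and PHO12 at r = 1.0 to the digits given. PHO8 was nearly unrelated to PHO5 (r = 0.163) and to PHO11 (r = -0.043), while DIA3 ran against PHO3 (r = -0.796). These values describe libraries that fall into genotypes and share each group's effect. Among 5763 other genes with a mean of at least 10 TPM, the patterns most like PHO5 were those of BAT2 (r = 0.975), an aminotransferase for branched-chain amino acids, the Ty1 retrotransposon frame YGR038C-A (r = 0.967) and YOL019W (r = 0.967). Those most like PHO3 were FAA3 (r = 0.977), the phospholipase B gene PLB2 (r = 0.968) and the Ty1 frame YJR027W (r = 0.968). PHO11 and PHO12 were most like the Ty1 frames YGR027W-B (r = 0.991 and 0.99) and YPL257W-B (r = 0.986 for each), followed by BAT2 (r = 0.985) for PHO11 and by BAR1 (r = 0.985), which encodes a pheromone protease, for PHO12. Ty1 frames occur in many copies and their reads may be shared. BAT2 changed by -1.99 ± 0.07 in swi3del, -1.32 ± 0.07 in swi3-E815X, -1.68 ± 0.07 in snf2del, -1.80 ± 0.07 in snf2-W935R and -1.33 ± 0.07 in snf2-Q928K, each called.

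DIA3 was most like HMG2 (r = 0.976), an isozyme of sterol synthesis, YCP4 (r = 0.974) and GRH1 (r = 0.972). HMG2 rose in swi3del (0.80, adjusted p = 1.18e-06), snf2del (0.92, adjusted p = 9.71e-09) and snf2-Q928K (0.57, adjusted p = 4.01e-06) and changed by 0.04 in swi3-E815X (adjusted p = 0.787) and by 0.04 in snf2-W935R (adjusted p = 0.697). PHO8 was most like FLC1 (r = 0.965), ICT1 (r = 0.958) and the biotin gene BIO2 (r = 0.903). FLC1 fell in swi3-E815X (-0.42, adjusted p = 0.00474) and snf2-W935R (-0.46, adjusted p = 9.19e-05). PHO13 was most like YGL039W (r = 0.911), YDR274C (r = 0.898) and MGA2 (r = 0.886).

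Apart from PHO3 and PHO5, which are neighbours and fell together, the protein-coding genes next to the members were not called lower in any of the 5 mutants in the fits reported here. YDL022C-A, which overlaps DIA3, was not analysed here. Of these neighbours, only IMD2, YAR068W, RTK1 and CWC21 were also fitted with other settings. With median-ratio scaling CWC21, next to PHO8, was called lower in snf2del (-0.33, adjusted p = 0.0333) and snf2-Q928K (-0.39, adjusted p = 0.0213), and without snf2-Q928K replicate 1 in snf2-Q928K (-0.42, adjusted p = 0.0109). By PHO3 and PHO5, TIM12 changed by 0.44 in swi3del (adjusted p = 0.00159) and 0.25 in swi3-E815X (adjusted p = 0.154), and PBY1 by 0.15 (adjusted p = 0.128) and -0.23 (adjusted p = 0.119). Next to PHO11, YAR068W, whose end lies 2568 bases away, rose by 2.18 in swi3del (adjusted p = 2.66e-09), 2.25 in snf2del (adjusted p = 4.97e-11), 0.66 in snf2-W935R (adjusted p = 0.000111) and 2.08 in snf2-Q928K (adjusted p = 4.75e-10) and changed by 0.06 in swi3-E815X (adjusted p = 0.774). In the authors' deposited table of snf2-W935R YAR068W was not called (0.35, adjusted p = 0.747). Before PHO12, YHR214C-E rose in swi3del (2.44, adjusted p = 1.01e-05), snf2del (2.76, adjusted p = 7.45e-07) and snf2-Q928K (1.49, adjusted p = 0.000631). YHR214C-E was scarce, at 0.446 ± 0.176 TPM in SWI3 and 0.342 ± 0.163 TPM in SNF2, under the 1 TPM of the filter. It had 6.91 ± 1.57 TPM in swi3del, 8.65 ± 4.42 TPM in snf2del and 2.81 ± 0.852 TPM in snf2-Q928K (SD, n = 3 each). After PHO12, IMD2, a guanine nucleotide synthesis gene that starts 893 bases on, rose in all 5 mutants, between 1.15 in swi3-E815X (adjusted p = 0.000253) and 4.59 in snf2del (adjusted p = 2.28e-13). IMD2 also differed between the wild types, at 9.33 ± 1.70 TPM in SNF2 and 30.2 ± 4.81 TPM in SWI3 (-1.59, adjusted p = 6.1e-08). Next to DIA3, RTK1 rose with it in swi3del (0.87), snf2del (1.11) and snf2-Q928K (0.87), and changed by 0.33 in snf2-W935R (adjusted p = 0.0242). That last call was lost in 5 of the 12 fits that left out a library, the lowest value being 0.23 (adjusted p = 0.116) without SNF2 replicate 1, and in the authors' deposited tables RTK1 was not called in swi3del (adjusted p = 0.134), snf2-W935R (adjusted p = 1.0) or snf2-Q928K (adjusted p = 0.115). Next to PHO8, CWC21 changed by 0.65 ± 0.13 in swi3-E815X (adjusted p = 0.00731), where PHO8 fell, and by 0.08 ± 0.13 in snf2-W935R (adjusted p = 0.704), where PHO8 fell too. Against the wild type of the other family CWC21 changed by 0.16 in swi3-E815X (adjusted p = 0.484). In the authors' deposited table of swi3-E815X it was not called either (0.71, adjusted p = 0.82). On the other side of PHO8, DIG2 changed by 0.29 in swi3del (adjusted p = 0.0417) and 0.36 in snf2del (adjusted p = 0.00154), where the medians of all genes were 0.23 and 0.26. Next to PHO13, YPD1 rose by 0.67 in swi3del (adjusted p = 1.35e-05) and 0.57 in snf2del (adjusted p = 5.12e-05), and AIM6 changed by 0.27 (adjusted p = 0.0191) and 0.46 (adjusted p = 8.2e-06) there.

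Other genes of the phosphate circuit are given for the background of these changes. Of 10 genes of phosphate transport, 7 fell and 3 rose in swi3del, 5 and 1 in swi3-E815X, 7 and 3 in snf2del, 4 and 1 in snf2-W935R and 4 and 3 in snf2-Q928K. For this and the following lists the shares of all genes called lower and higher were 24.3% and 47.4% in swi3del, 5.77% and 3.06% in swi3-E815X, 24.6% and 50.2% in snf2del, 10.9% and 16.3% in snf2-W935R, and 20.7% and 36.3% in snf2-Q928K. PHO84, the high-affinity transporter, had 32.0, 26.9 and 25.1 TPM in swi3del and 859.56, 935.01 and 839 TPM in swi3-E815X, against 1151, 1157 and 1098 TPM in SWI3. PHO84 had 25.5, 175 and 23.6 TPM in snf2del, 710, 632 and 629.55 TPM in snf2-W935R and 878, 742 and 821 TPM in snf2-Q928K, against 1189, 1425 and 1199 TPM in SNF2. The deletion libraries were thus far below the others, with replicate 2 of snf2del above its group, and the point mutants lay below their wild types with no overlap. PHO84 changed by -5.30 ± 0.09 in swi3del (adjusted p = 1.77e-12), -0.37 ± 0.09 in swi3-E815X (adjusted p = 0.0168), -4.70 ± 0.65 in snf2del (adjusted p = 0.000166), -0.95 ± 0.65 in snf2-W935R (adjusted p = 0.332) and -0.64 ± 0.65 in snf2-Q928K (adjusted p = 0.431). Without snf2del replicate 2 the change in snf2del was -5.63, and the adjusted p in snf2-W935R and snf2-Q928K were 1.52e-06 and 2.11e-05. In the authors' deposited tables PHO84 was called in snf2-W935R (-0.98, adjusted p = 3.09e-19) and snf2-Q928K (-0.75, adjusted p = 2.15e-09). The call in swi3-E815X was lost in 4 of the 9 fits that left out a library, and with all 21 libraries in the fit (-0.37, adjusted p = 0.716).

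In the point mutants PHO84 stood closer to wild type than PHO5 did. PHO5 was at 14.7% of the SWI3 level in swi3-E815X and at 10.6% of the SNF2 level in snf2-W935R. PHO84 averaged 878 ± 50.7 TPM in swi3-E815X, against 1135 ± 32.8 TPM in SWI3, and 657 ± 45.9 TPM in snf2-W935R, against 1271 ± 133 TPM in SNF2 (SD, n = 3 each). The difference between the 2 genes was not tested. SPL2, which takes part in turning down the low-affinity transporters, had changes of -5.02 in swi3del, -1.97 in swi3-E815X, -5.14 in snf2del, -4.58 in snf2-W935R and -5.12 in snf2-Q928K, all called. PHM6, a small gene of unknown function in this circuit, changed by -4.61, -1.79, -5.04, -3.53 and -4.20 in the same order, all called. PHO84, SPL2 and PHM6 were named for their small p, and other genes of the transport list rose. PHO87 averaged 78.6 ± 2.11 TPM in swi3del and 72.2 ± 4.76 TPM in swi3-E815X, against 28.9 ± 1.66 TPM in SWI3. It averaged 90.2 ± 22 TPM in snf2del, 93.4 ± 3.55 TPM in snf2-W935R and 124 ± 4.98 TPM in snf2-Q928K, against 25.5 ± 1.03 TPM in SNF2.

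Of 8 polyphosphate genes, which make and break the cell's phosphate store, 6 fell and 1 rose in swi3del, 6 and 0 in swi3-E815X, 6 and 1 in snf2del, 6 and 0 in snf2-W935R and 7 and 1 in snf2-Q928K. VTC3, a subunit of polyphosphate synthase, changed by -3.12 in swi3del, -1.33 in swi3-E815X, -3.14 in snf2del, -2.25 in snf2-W935R and -2.43 in snf2-Q928K, all called. VTC4, its catalytic subunit, fell by 0.66 to 1.60 in the 5 mutants, and PPN2, a polyphosphatase, by 0.78 to 1.33. Of 8 regulators of the circuit, 2 fell and 3 rose in swi3del, 2 and 0 in swi3-E815X, 2 and 4 in snf2del, 3 and 1 in snf2-W935R and 3 and 4 in snf2-Q928K. PHO81, the inhibitor of the Pho80-Pho85 kinase and itself a Pho4 target, fell in each, from -1.85 ± 0.08 in swi3del (adjusted p = 2.77e-09) to -0.75 ± 0.08 in swi3-E815X (adjusted p = 6.88e-05). In the authors' deposited table of swi3-E815X PHO81 was not called (-0.73, adjusted p = 0.183). Replicate 2 of snf2del stood above its group for VTC3, VTC4 and PHO81, as for PHO84 and SPL2. VTC3 had 28.6, 42.6 and 30.4 TPM there, VTC4 109, 169 and 106 TPM, and PHO81 19.2, 25.1 and 19.1 TPM. Leaving out single libraries, the change in snf2del ran from -3.31 to -3.04 for VTC3, from -1.82 to -1.49 for VTC4 and from -1.97 to -1.78 for PHO81. The activator gene PHO4 did not fall: it changed by 0.36 in swi3del (adjusted p = 0.00879; 0.13 with median-ratio scaling, adjusted p = 0.295), 0.05 in swi3-E815X (adjusted p = 0.858), 0.60 in snf2del (adjusted p = 3.83e-06), 0.07 in snf2-W935R (adjusted p = 0.544) and 0.76 in snf2-Q928K (adjusted p = 8.59e-07). PHO2, its partner, changed by 0.53, -0.05, 0.69, 0.26 and 0.28 in that order of mutants, called in all but swi3-E815X (adjusted p = 0.794). The PHO2 call in snf2-W935R (adjusted p = 0.0221) was lost in 4 of the 12 fits that left out a library, with adjusted p of 0.0568 to 0.0868, and in the authors' deposited tables PHO2 was not called in swi3del (adjusted p = 0.581), snf2-W935R (adjusted p = 1.0) or snf2-Q928K (adjusted p = 0.854). PHO4 was not called there in swi3del (adjusted p = 0.809) or snf2-Q928K (adjusted p = 0.122).

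Of 10 other phosphatases of small molecules, 2 fell and 5 rose in swi3del, 2 and 0 in swi3-E815X, 2 and 6 in snf2del, 2 and 2 in snf2-W935R and 1 and 4 in snf2-Q928K. In both deletions these counts are near the shares of all genes. PHM8, a nucleotide phosphatase induced by low phosphate, fell in all 5, between -1.10 in snf2-Q928K (adjusted p = 6.6e-08) and -1.64 in swi3-E815X (adjusted p = 1.84e-06). GPP1, a glycerol phosphatase, fell in swi3del (-1.03, adjusted p = 3.86e-07) and snf2del (-1.18, adjusted p = 4.67e-09) and rose in snf2-W935R (0.55, adjusted p = 9.99e-05) and snf2-Q928K (0.51, adjusted p = 7.29e-05). DOG2, a deoxyglucose phosphatase, rose in swi3del (0.97, adjusted p = 5.65e-06) and snf2del (1.03, adjusted p = 6.77e-08). Since PHO3 serves thiamine uptake, 16 thiamine genes were listed too. Of these 0 fell and 12 rose in swi3del, 0 and 0 in swi3-E815X, 1 and 14 in snf2del, 0 and 1 in snf2-W935R and 1 and 7 in snf2-Q928K, where 47.4% of all genes were called higher in swi3del and 50.2% in snf2del. The 1 gene called in snf2-W935R was THI12, and the call was lost in 4 of the 12 fits that left out a library (adjusted p 0.0778 to 0.121), with a pseudocount of 5 (adjusted p = 0.123) and with quantile scaling (adjusted p = 0.175). At an unadjusted p under 0.05 limma placed 0 lower in swi3del, 2 lower and 1 higher in swi3-E815X, and 0 lower in snf2-W935R. THI5, of the multicopy family that makes the pyrimidine of thiamine, had 19.7, 21.1 and 20.6 TPM in swi3del and 1.13, 2.08 and 1.67 TPM in swi3-E815X, against 1.39, 1.43 and 0.992 TPM in SWI3. THI5 and its relative THI12 share sequence, so their levels are uncertain one by one. THI7, the thiamine transporter, rose by 1.35 in swi3del (adjusted p = 3.29e-07) and 1.51 in snf2del (adjusted p = 2.63e-09). PHO3 fell in all 5 mutants, including swi3-E815X and snf2-W935R, where 0 and 1 of the thiamine genes were called. Whether the fall of PHO3 depends on thiamine was not tested.

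**Figure D5:**
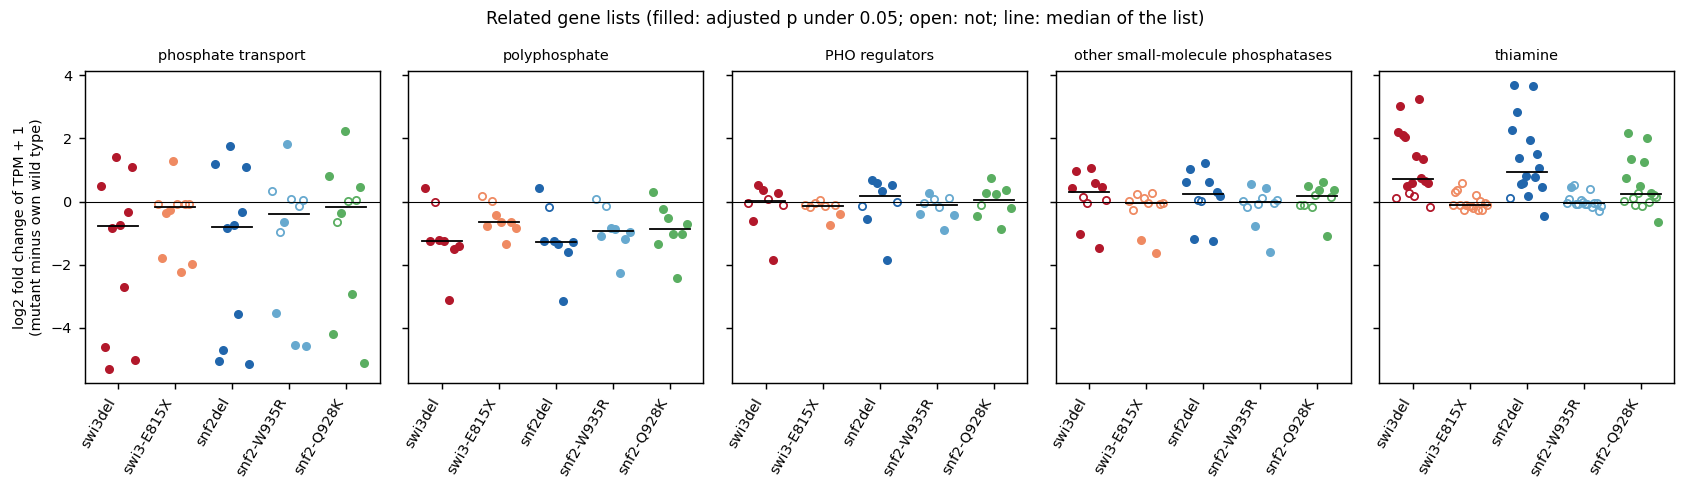
Log2 fold change of TPM + 1, mutant minus own wild type, for genes of phosphate transport, polyphosphate, PHO regulation, other small-molecule phosphatases and thiamine; filled points have an adjusted p under 0.05 and lines are list medians. The medians of the polyphosphate list lie below 0 in all 5 mutants, and the thiamine list lies mostly above 0 in swi3del and snf2del.

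The polyphosphate list had a median of -1.24 in swi3del, -0.65 in swi3-E815X, -1.27 in snf2del, -0.91 in snf2-W935R and -0.87 in snf2-Q928K, and the thiamine list 0.70, -0.10, 0.93, -0.05 and 0.23. The median of all genes was 0.23, -0.03, 0.26, 0.03 and 0.1 in that order. Phosphate transport had medians of -0.78, -0.16, -0.79, -0.39 and -0.16. The regulators, at 0.01, -0.13, 0.17, -0.11 and 0.06, and the other phosphatases, at 0.29, -0.04, 0.24, 0 and 0.19, lay nearer to all genes. CACGTG within 600 bases before the start codon was found in 8 of 9 transport genes with such a window, 4 of 8 polyphosphate genes, 3 of 8 regulators, 3 of 10 other phosphatases and 0 of 16 thiamine genes, against 7.2% of all genes. Among the members with CACGTG, PHO5, PHO11 and PHO12 fell in every mutant, and PHO8 fell in swi3-E815X and snf2-W935R alone. Of those without it, PHO3 fell in every mutant, and DIA3 and PHO13 were not called lower in any. Whether the falls depend on these sites was not tested.

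In the authors' deposited tables, PHO5 had log2 changes of -3.5 in swi3del, -2.74 in swi3-E815X, -3.24 in snf2del, -3.27 in snf2-W935R and -2.9 in snf2-Q928K, the largest adjusted p being 1.23e-29. PHO3 had -3.02, -1.77, -2.75, -1.63 and -2.01 in the same order. PHO11 and PHO12 from the authors' deposited tables were not analysed here.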

How the data were processed

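Poly(A) RNA of 21 libraries was sequenced with a directional kit, per the labels' protocols. HISAT2, StringTie and DESeq2 and the build sacCer3/R64 are named per the submitters' processing notes; versions and settings are not stated there, nor whether counting used strand. The deposited expression table holds TPM for 6407 genes, per the file headers, and 0 sample columns were left unused. The authors' 5 deposited comparison tables hold, per the file headers, a mean signal, the log2 fold change (mutant over wild type) and its error, a score of the test, p-values and their adjusted form; the input behind these p-values is not named, and the table of snf2del holds only genes past a threshold.

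Groups came from the sample titles. Changes were fitted with limma 3.58.1 (R 4.3.3, statmod 1.5.0) on log2(TPM + 1), two-sided, with moderation set to trended and robust and Benjamini-Hochberg adjustment over all genes tested. Genes entered a fit if 3 or more of its libraries reached 1 TPM. Each family had its own fit, of 9 libraries for SWI3 and 12 for SNF2; comparisons between families used a fit of all 21. The fit was tested on simulated data. TPM keeps no depth, so no counting interval is given. An exact permutation test of 3 against 3 libraries could not go below 0.1 and was not used. Sequences, positions and identities come from the R64 genome and annotation of NCBI RefSeq (Biopython 1.88); figures were drawn with Python 3.11.15 and matplotlib 3.10.9.

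The members and gene lists were chosen with earlier results of these data known. The rule for named genes took all 7 members, per list the 3 genes with the smallest p in swi3del, snf2del or swi3-E815X, PHO84 and PHO4, the 3 genes most correlated with each member, and the nearest neighbours. PHO87 is given besides, as a transport gene with higher levels in the mutants. Mating-type genes are given as sums, except BAR1, and not every gene is given in every comparison. Deviations of same-numbered libraries correlated over 0.1 in 3 of 9 pairs in the SWI3 family and 1 of 18 in the SNF2 family. Differently numbered libraries did so in 1 of 18 and 6 of 36 pairs. Same-numbered pairs thus passed 0.1 more often in the SWI3 family and less often in the SNF2 family. The labels do not say that a number marks a shared day, so the numbers were not taken to pair libraries. Alternatives tried were pseudocounts of 0.1 and 5, no filter, median-ratio and quantile scaling, plain moderation, all 21 libraries in the fit, a replicate block, the other wild type, PHO11 with PHO12 or PHO5 with PHO3 summed, the authors' tables, and each library left out in turn.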

Additional observations from a re-analysis of the deposited data

Results flagged for a closer look

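PHO11 and PHO12 drew attention because their change against the own wild type differed between mutants of the 2 families in a test of the difference itself (limma, n = 3 libraries per group). Between swi3del and snf2del the difference of log2 changes was -0.97 for PHO11 (adjusted p = 0.000944) and -0.92 for PHO12 (adjusted p = 0.00127), a deeper fall in swi3del. The deletions themselves had 10.2 ± 1.10 TPM of PHO11 in swi3del and 12.6 ± 2.10 TPM in snf2del, and the wild types 488 ± 16.2 TPM in SWI3 and 302 ± 19.0 TPM in SNF2. Between swi3-E815X and snf2-W935R the difference was 1.05 for PHO11 (adjusted p = 0.000313) and 1.14 for PHO12 (adjusted p = 0.000106), a shallower fall in swi3-E815X. Both genes share nearly all of their sequence, so these are not independent results. Over the 21 fits that each left out a library, the 4 differences kept their sign and call.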

How the results depend on the processing

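In the 5 mutants against wild type, PHO5, PHO3, PHO11 and PHO12 kept direction and call in all 446 alternative values that could be computed. DIA3 did so in 109 of 111, PHO8 in 98 of 113 and PHO13 in 105 of 113. These values include fits against the other family's wild type and fits with PHO11 and PHO12, or PHO5 and PHO3, summed. With median-ratio and with quantile scaling, the count of genes called higher was 1 in swi3del against SWI3 (3 as reported) and 1 in snf2del against SNF2 (2). With median-ratio scaling, 3 were higher in snf2-W935R and 6 in snf2-Q928K against snf2del; with quantile scaling 3 and 6, with 0 lower in snf2-Q928K, and 3 higher in snf2-Q928K against snf2-W935R. Against the other family's wild type, 1 was higher in swi3-E815X. With PHO5 and PHO3 summed, 2 were higher in snf2-W935R against snf2del, and the summed row stood at 0.60 there and at -0.13 in snf2-Q928K against snf2-W935R, where PHO5 alone had the opposite sign. Leaving out single libraries gave 1 to 3 genes higher in snf2-W935R against snf2del, the highest without snf2del replicate 2 or snf2-Q928K replicate 2, and 0 to 1 lower in snf2-Q928K against snf2-W935R. PHO8 in swi3del turned to -0.05 with median-ratio scaling, -0.01 with quantile scaling and -0.06 in the authors' deposited table, and lost its call without SWI3 replicate 2 (0.17, adjusted p = 0.062), SWI3 replicate 3 or swi3del replicate 3. PHO13 in swi3del turned to -0.01 with median-ratio scaling and to -0.01 in the authors' deposited table. Against the other family's wild type, CWC21 stood at -0.43 in swi3del and 0.41 in snf2del, and THI12 at -0.01 in snf2-W935R. The cause of these changes was not tested. With the replicate block, the call of PHO11 in snf2-Q928K against snf2-W935R was lost (0.32, adjusted p = 0.0593) and 5 members were higher there against 6 without it; it changed no other call of a member. Over all genes, the number called lower was 1554 in swi3del (2412 with quantile scaling) and 1574 in snf2del (2414 with median-ratio and 2593 with quantile scaling), so the shares of all genes beside the members' counts move with the scaling. Leaving out single libraries, 95 to 185 genes were lower in SNF2 against SWI3 (164 as reported), lowest without SNF2 replicate 1 (95) and SWI3 replicate 1 (105). In swi3-E815X against snf2-W935R, 438 to 842 were lower (791), lowest without snf2-W935R replicate 1 and swi3-E815X replicate 1 (524), and 273 to 447 higher (424), lowest without snf2-W935R replicate 2. Library depth is unknown, so the precision of DIA3, at 1.08 to 9.96 TPM, rests on replicate spread alone.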
